A study of Mus musculus with 6 samples.

Results

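The genes described here encode the proteins of tight junctions, desmosomes, gap junctions and the core of the adherens junction in mouse jejunal organoids. They were taken by symbol: claudins (Cldn), desmogleins and desmocollins (Dsg, Dsc), plakophilins 1 to 4 (Pkp), zonula occludens genes (Tjp), MARVEL-domain genes (Marveld), beta connexins (Gjb) and junctional adhesion molecules (Jam), each followed by a digit, plus Ocln, F11r, Cgn, Cgnl1, Dsp, Jup, Ppl, Evpl, Cdh1, Ctnna1 and Ctnnd1. This gave 44 of the 18448 genes of the table, and 41 of the 44 had enough counts to be tested, among 14544 tested genes. The rule used no measured value.

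Poly(A) RNA was sequenced from 6 cultures of C57BL/6 jejunal organoids, all of the genotype Villin-CreERT2; Hnf4aflox/flox, so the control cultures carried the same transgene and floxed alleles. Villin-CreERT2 is a Cre recombinase that tamoxifen switches on, driven by the villin promoter of intestinal epithelium. One group of 3 libraries received the vehicle DMSO. The other group of 3 received 0.5 µM 4-hydroxytamoxifen (4OHT) for 24 h before being split, to delete Hnf4a, a nuclear receptor of the intestinal epithelium. Both groups were given 200 ng/mL mouse Wnt3A and collected on day 2 from the last split. Because 4OHT, Cre activation and any deletion of Hnf4a came together in one group, their effects cannot be told apart here. The labels give neither the age of the mice nor whether replicates came from separate animals or organoid lines, so p-values cover only the spread among these libraries, possibly a technical one.

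Junctions hold neighbouring epithelial cells together and control what passes between them. Claudins are membrane proteins that form the strands of the tight junction: some seal it, while others, such as claudin-2 and claudin-15, form channels for small cations or water and are typical of the small intestine. Occludin, tricellulin and junctional adhesion molecules accompany the claudins, and the zonula occludens proteins and cingulin link them to actin. Desmosomes join cells mechanically: desmogleins and desmocollins bind across the gap, and plakophilins, plakoglobin and desmoplakin tie them to keratin. Connexins form gap junction channels through which small molecules move from cell to cell.

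Library totals ran from 31537100 to 40276242 counts, and the 44 genes held 0.759% to 0.919% of them. Hnf4a itself was at 840, 846 and 1021 CPM (counts per 1000000, on library sizes scaled by edgeR's TMM factors) in DMSO replicates 1 to 3 and at 436, 424 and 482 CPM under 4OHT (edgeR adjusted p = 0.0124, log2 fold change -1.01 with SE 0.0997). These counts cover the whole gene, so they do not show how much of the transcript lacked the floxed part. DMSO replicate 3 stood apart from DMSO replicates 1 and 2 over all genes (chi-square per degree of freedom of 55.2 and 50.6, beside 6.97 between replicates 1 and 2). Within 4OHT the same measure was 13.7 between replicates 1 and 2, 15.0 between 1 and 3 and 27.7 between 2 and 3. Libraries with the same replicate number deviated together from their group means across genes (r of 0.303, 0.332 and 0.427), so the value with a block for that number is printed wherever it changed a call. Epithelial markers (Epcam, Vil1, Cdx2, Krt8, Krt18, Krt20) summed to 8920 to 12590 CPM per library, against at most 0.957 CPM for 2 endothelial markers, 0.458 CPM for 2 fibroblast markers and 0.554 CPM for 3 immune markers. Goblet cell markers (Agr2, Fcgbp, Muc2, Tff3) were not called without the block, and all 4 rose with it, from sums of 1727 to 3300 CPM to sums of 2736 to 4366 CPM.

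Without the replicate block edgeR called 0 of the 41 tested junction genes, beside 0.908% of all tested genes. With the block 4 were called (9.76%), beside 6.99% of all tested genes. These 4 came from different kinds of junction and went in both directions. The transcript of the channel-forming claudin Cldn15 was 2.11-fold lower with 4OHT, while those of the plaque gene Cgnl1 and the plakin gene Evpl were 1.64-fold and 1.8-fold higher. Those fold changes are from the fit without the block, where these genes missed the threshold that they passed with it. E-cadherin, occludin, claudin-2 and the main desmosomal cadherins had estimates near 0.

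Of the 41 tested junction genes, 0 passed the edgeR quasi-likelihood test at an adjusted p under 0.05, where 0.908% of all tested genes did. With p left unadjusted, 10 were higher and 2 lower with 4OHT at p under 0.05, beside 15.0% of all tested genes past that mark (8.65% higher and 6.35% lower). In the fit with the replicate block 3 genes rose, Cgnl1 and Evpl among them, and Cldn15 fell, which is 4 of 41 (9.76%) beside 6.99% of all tested genes, 3.99% higher and 3.00% lower. DESeq2 called 5 of the 41, Cgnl1, Evpl, Ppl and Tjp1 among them, all higher, beside 5.20% of all tested genes (3.40% higher). Limma-voom called 0 of them (0.846% of all tested genes), as did edgeR with other size factors (0.894%), with library totals alone (0.949%), with no filter on low counts (0.743%) and with a filter of 1 CPM (0.960%).

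Which library was left out changed the calls. Without DMSO replicate 3, Cldn8 and Ppl were called higher, beside 2.29% of all tested genes (1.71% higher). Without replicate 3 of both groups, Cgnl1 and Ppl were called higher and Cldn15 lower, beside 4.10% of all tested genes (2.59% and 1.51%). Adding the block to those 4 libraries, which leaves 1 residual degree of freedom, called 19 of the 41 (46.3%), 14 higher and 5 lower, beside 18.3% of all tested genes (10.1% and 8.16%). Leaving out any other single library called 0 junction genes. Over all tested genes those fits called 0.0404% without DMSO replicate 1, 0.0270% without DMSO replicate 2, and 0.0606%, 0.135% and 0.0811% without 4OHT replicates 1, 2 and 3.

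The authors' deposited table gave edgeR adjusted p-values under 0.05 for 6 of the 44 genes, 5 higher (Cgnl1, Cldn8, Evpl and Ppl among them) and Cldn15 lower, beside 3.65% of all genes in that table (2.42% higher and 1.23% lower). DESeq adjusted p-values in the authors' deposited table were under 0.05 for Evpl and Ppl alone among the 44, both higher, beside 1.63% of all genes (1.30% higher). In whole-culture RNA, fewer cells of a type and less RNA per cell cannot be told apart.

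The log2 fold changes (4OHT over DMSO) of the 41 genes ran from -1.07 (Cldn15) to 1.17 (Cldn8), with a median of 0.13 beside -0.00407 for all tested genes, and 29 were above 0 and 12 below. When DMSO replicate 3 was left out, the median was 0.0426, with 22 genes above 0 and 19 below. The groups did not overlap for 14 of the 41 (34.1%), 11 higher and 3 lower with 4OHT, beside 22.6% of all tested genes (12.5% higher and 10.1% lower). In 20 genes the 4OHT library was above the DMSO library of the same number in all 3 pairs (25.3% of all tested genes), and in 8 it was below in all 3 (24.5%).

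**Figure D1:**
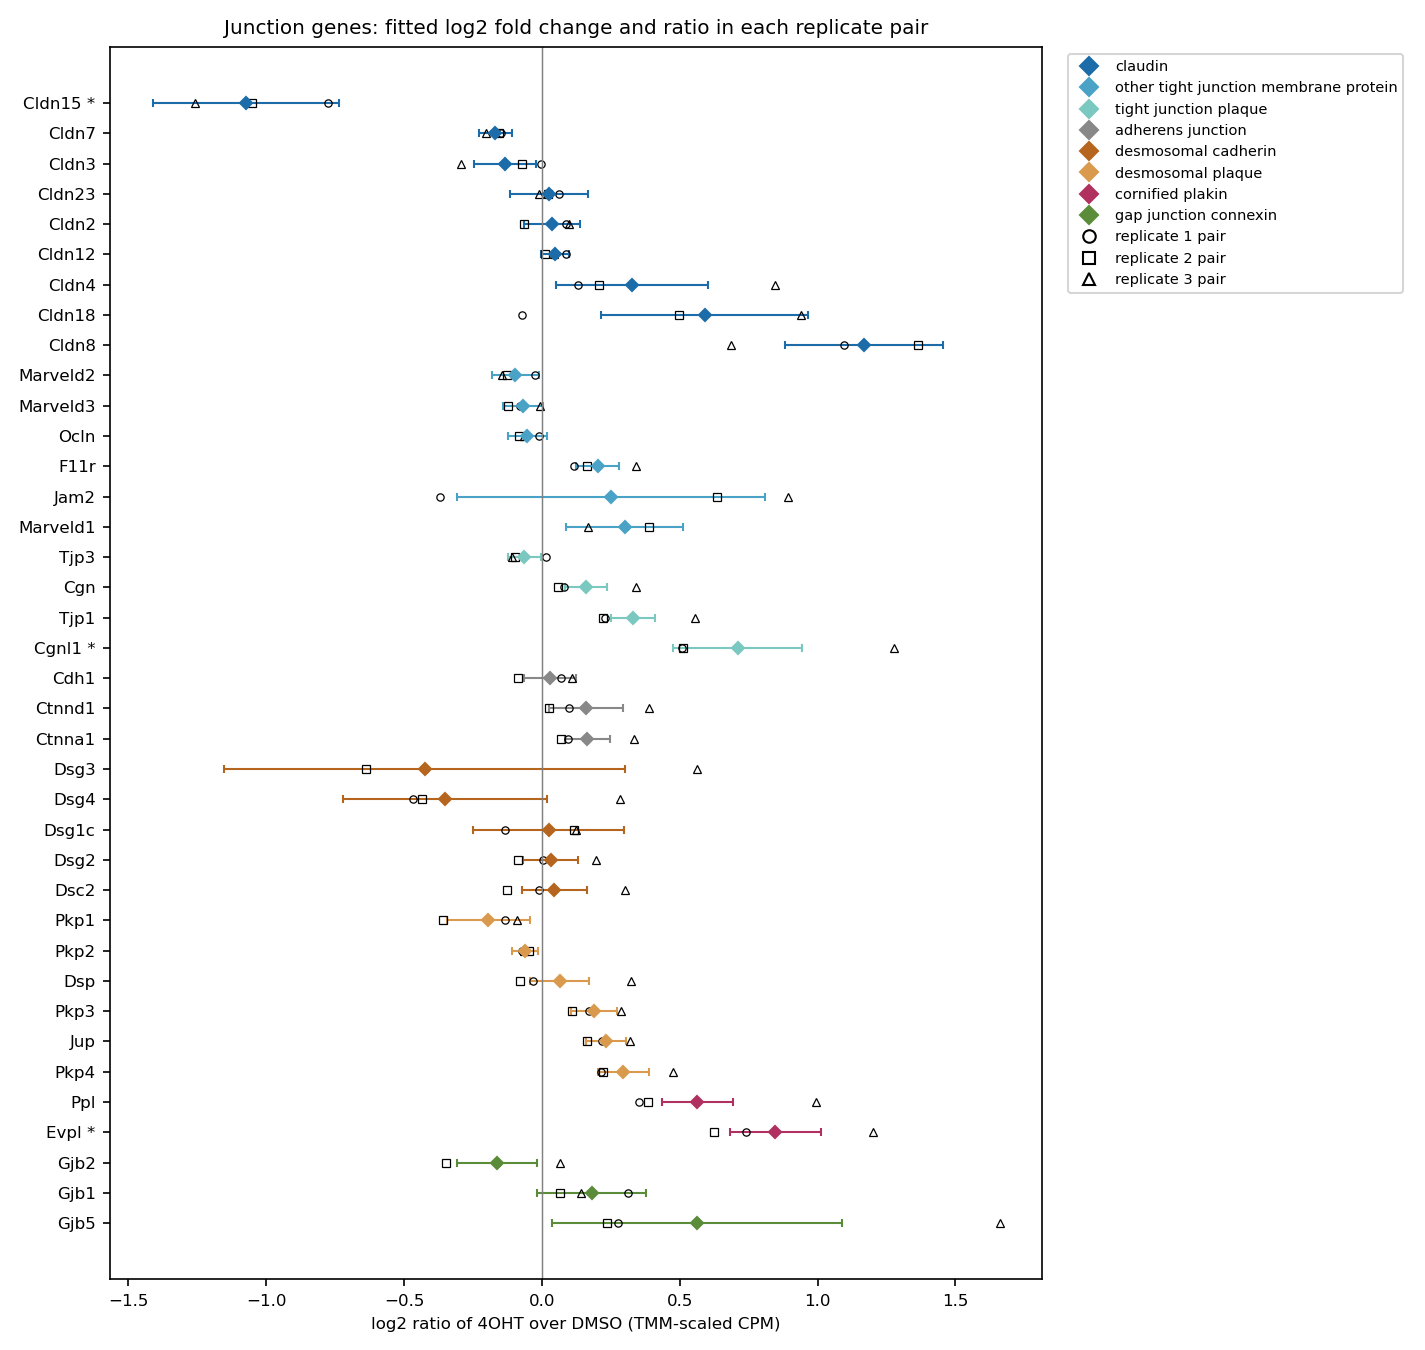
Log2 ratio of 4OHT over DMSO for 38 of the tested junction genes, grouped by role: filled diamonds with bars are the fitted log2 fold change and its standard error without a replicate block, and open symbols are the ratios of the libraries with the same replicate number (0.1 CPM added to each level). Asterisks mark genes called with the replicate block: Cldn15 is below 0 in all 3 pairs and Cgnl1 and Evpl are above 0 in all 3, while most other genes lie near 0.

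Cldn15, which encodes a cation channel-forming claudin of the small intestine, had the lowest log2 fold change of the 41 genes. It measured 169, 171 and 352 CPM in replicates 1 to 3 under DMSO, and 98.8, 82.7 and 147 CPM in the same order under 4OHT. Every 4OHT library was below every DMSO library, and replicate 3 was the highest of its group on both sides. From a mean of 231 ± 105 CPM, 4OHT libraries stood at 110 ± 33.7 CPM (SD, n = 3), which the fit gave as 2.11-fold lower. Without the block the log2 fold change was -1.07 (SE 0.338, 95% confidence interval -1.87 to -0.28, edgeR adjusted p = 0.206), and with the replicate block Cldn15 fell (log2 fold change -1.03, SE 0.0924, adjusted p = 0.00863). Without replicate 3 of both groups the gene fell in both fits (-0.92, adjusted p = 0.00511 without the block), and with DMSO replicate 3 alone left out the estimate was -0.64 (adjusted p = 0.207). Its GRCm38 position (ENSMUSG00000001739) is chromosome 5, 136966616 to 136975858, plus strand.

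Levels of enterocyte markers are given beside Cldn15. The sum of 9 of them (Alpi, Sis, Fabp1, Fabp2, Apoa1, Apoa4, Lct, Anpep and Slc5a1) was 2966 to 6442 CPM in DMSO, highest in replicate 3, and 2073 to 3488 CPM under 4OHT, also highest in replicate 3. EdgeR called 0 of the 9 without the block, Apoa1 and Fabp2 fell with it, and their median log2 fold change was -0.54. Their part in the Cldn15 result was not tested.

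Cgnl1, which encodes paracingulin, a plaque protein that links junctions to the cytoskeleton, was called higher with the block. It measured 108, 93.9 and 54.1 CPM under DMSO and 154, 134 and 131 CPM under 4OHT. The groups did not overlap, and DMSO replicate 3 was the lowest library. From a mean of 85.3 ± 28.0 CPM, 4OHT libraries stood at 140 ± 12.3 CPM (SD, n = 3), which the fit gave as 1.64-fold higher. The log2 fold change was 0.71 without the block (SE 0.233, edgeR adjusted p = 0.222) and 0.76 with it (SE 0.156, adjusted p = 0.0465). With replicate 3 of both groups left out it was 0.51 (adjusted p = 0.0337), and without DMSO replicate 3 alone 0.46 (adjusted p = 0.0588). Its GRCm38 position (ENSMUSG00000032232) is chromosome 9, 71626509 to 71771602, minus strand.

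The 250 bases before an annotated RefSeq start site (GRCm38.p6) are shown for Cldn15 and Cgnl1, the genes called in opposite directions with the block for which an entry was used. Capitals mark matches, on either strand, to AP-1 (TGANTCA), TEAD (GGAATG), TCF/LEF (CTTTGAT), CDX (TTTATG), HNF4 (CAAAGTCCA) or its direct repeat form with a spacer of a single base. The Cldn15 start site lies inside the GENCODE gene and not at its first base.

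Cldn15, chr5:136967619-136967868, plus strand: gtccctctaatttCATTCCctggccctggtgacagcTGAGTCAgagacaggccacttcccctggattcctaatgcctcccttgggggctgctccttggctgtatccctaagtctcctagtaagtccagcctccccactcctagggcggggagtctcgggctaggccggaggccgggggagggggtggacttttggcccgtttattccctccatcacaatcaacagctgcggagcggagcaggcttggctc

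Cgnl1, chr9:71771603-71771852, minus strand: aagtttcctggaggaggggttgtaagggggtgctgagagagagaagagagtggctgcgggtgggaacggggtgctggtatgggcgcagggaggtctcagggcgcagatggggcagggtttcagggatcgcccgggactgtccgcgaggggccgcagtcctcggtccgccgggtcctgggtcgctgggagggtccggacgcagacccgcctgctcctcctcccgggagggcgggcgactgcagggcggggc

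The Cldn15 window held an AP-1 match, which 6.75% of 32851 promoter windows of this length also held, and a TEAD match, which 12.6% held. The Cgnl1 window held none of these letters, and its GC content was 70.8% with 20 CpG dinucleotides, beside 60.8% and 7 for Cldn15 and a median GC content of 52.4% over all windows. Over 36 windows of 24 of the 44 genes, 3 held the AP-1 letters (Cldn15, Cldn4 and F11r), 5 the TEAD letters, 3 the CDX letters, 1 the TCF/LEF letters (Cldn18) and 0 either HNF4 form. Of all windows, 10.8% held the CDX letters, 3.21% the TCF/LEF letters, 0.384% the HNF4 letters and 0.0944% the direct repeat form. The TCF/LEF letters, read on the other strand, and the HNF4 letters share the run CAAAG, so that their matches can overlap. A match describes letters in this window and neither shows a bound site nor, where missing, the lack of one.

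**Figure D2:**
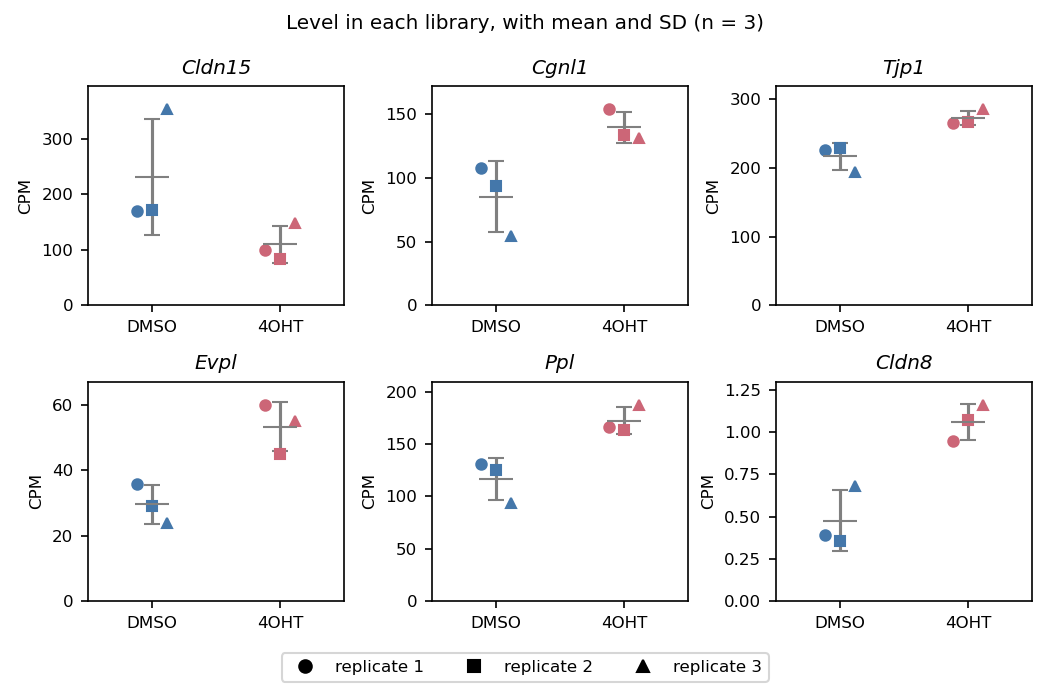
Level in CPM in each library for 6 junction genes, with replicates 1, 2 and 3 as circles, squares and triangles and the mean and SD of 3 libraries in grey; each axis starts at 0. The 6 were drawn from the genes called with the block or with the smallest p-values of their role. In all 6 the groups do not overlap, as in 34.1% of the tested junction genes and 22.6% of all tested genes. DMSO replicate 3 is the highest DMSO library for Cldn15 and Cldn8 and the lowest for Cgnl1, Tjp1, Evpl and Ppl.

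The claudin transcripts came from a few genes. Per kilobase of exon, Cldn7 had the highest mean level (297 CPM per kilobase), followed by Cldn3 (258), Cldn2 (131), Cldn4 (118) and Cldn15 (80.2), then Cldn12 (15.7) and Cldn23 (9.14). The other tested claudins, Cldn8 and Cldn18, were below 1 CPM per kilobase. As a share of the summed claudin level per kilobase, Cldn15 made up 8.56%, 8.77% and 16.5% in DMSO and 5.24%, 4.59% and 8.0% under 4OHT. Cldn7 held 32.0% to 34.3% in every library. No 4OHT library had as large a Cldn15 share as the lowest DMSO library, and within each group replicate 3 held the most.

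Cldn7, which encodes a claudin found along the lateral membrane as well as the junction, measured 621, 591 and 628 CPM under DMSO and 560, 530 and 546 CPM under 4OHT. The groups did not overlap, but the difference was small (log2 fold change -0.17, SE 0.0601, 95% interval -0.31 to -0.03) and missed the threshold without the block (edgeR adjusted p = 0.252) and with it (0.0945). Cldn8, a sealing claudin best known from colon and kidney, was close to the detection limit at 14, 13 and 21 raw counts in DMSO and 33, 38 and 46 after 4OHT. These correspond to 0.389, 0.354 and 0.682 CPM against 0.945, 1.07 and 1.16 CPM, with every 4OHT library above every DMSO library (log2 fold change 1.17, SE 0.288, adjusted p = 0.121, and 0.055 with the block). With DMSO replicate 3 left out it was called higher (adjusted p = 0.0441, log2 fold change 1.5).

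The remaining claudins are given to account for all of them. Cldn2, the other channel-forming claudin of the jejunum, measured 454, 461 and 379 CPM under DMSO and 482, 441 and 406 CPM under 4OHT. The groups overlapped, and the 95% interval of its log2 fold change (0.04) ran from -0.20 to 0.28. The interval for Cldn15 was -1.87 to -0.28, and a difference between these genes was not tested. Cldn3 and Cldn4 lie 39280 bases apart on chromosome 5 and have opposite-sided estimates, neither past the threshold. Cldn3 went from a mean of 339 to 309 CPM (-0.13, adjusted p = 0.635) and Cldn4 from 191 to 239 CPM (0.33, adjusted p = 0.636). Both estimates were near 0 without DMSO replicate 3, at -0.01 for Cldn3 and 0.05 for Cldn4. Cldn4 was at 241, 220 and 111 CPM under DMSO and at 264, 254 and 199 CPM under 4OHT. Cldn12 (mean 65.4 and 67.6 CPM), Cldn23 (16.8 and 17.0 CPM) and Cldn18 (0.314 and 0.478 CPM) had adjusted p-values of 0.711, 0.955 and 0.515. Cldn9 and Cldn20 were left out of the test, with 47 and 15 raw counts in total over the 6 libraries.

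**Figure D3:**
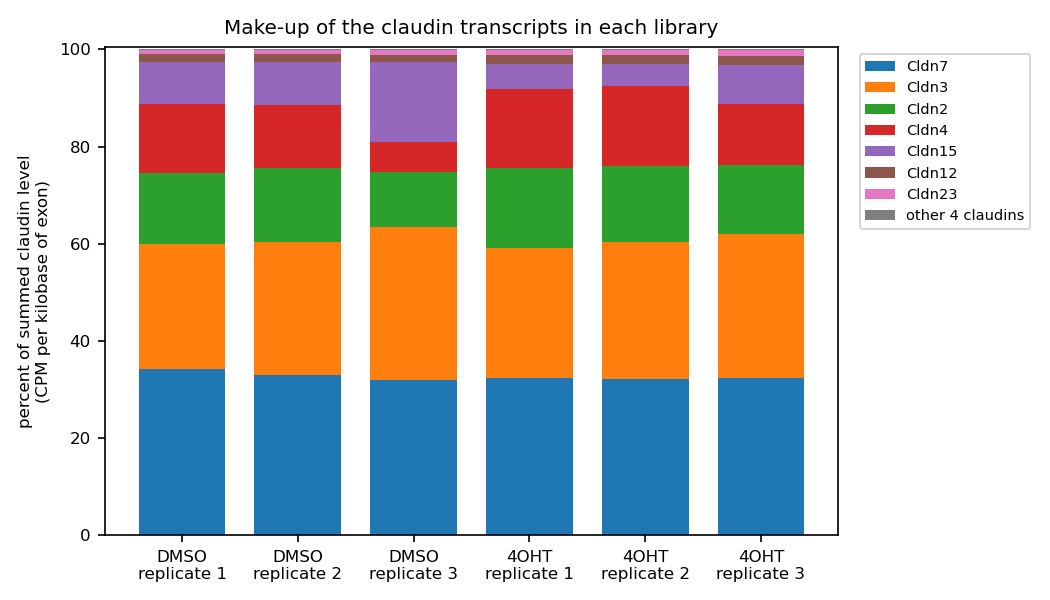
Share of each claudin in the summed claudin level (CPM per kilobase of exon, in percent), 1 bar per library. Cldn15 makes up 8.56% to 16.5% of the DMSO bars and 4.59% to 8.0% of the 4OHT bars, Cldn4 is smallest in DMSO replicate 3 (6.06%), and Cldn7 and Cldn3 are the largest in every library.

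Among the other tight junction membrane proteins, 0 of 6 were called by edgeR with or without the block. At an unadjusted p under 0.05 without the block 1 was higher, beside 8.65% of all tested genes. F11r, which encodes junctional adhesion molecule A and had the highest level of this group per kilobase, measured 233, 224 and 194 CPM under DMSO and 253, 251 and 245 CPM under 4OHT. No DMSO library reached the lowest 4OHT library (log2 fold change 0.20, SE 0.0786, adjusted p = 0.292, and 0.0905 with the block), and the estimate was 0.12 without DMSO replicate 3. Marveld1, a MARVEL-domain gene whose product is not a core strand protein, was at 7.53, 7.62 and 5.52 CPM under DMSO and 9.31, 10.0 and 6.22 CPM under 4OHT (0.30, adjusted p = 0.561, and 0.16 without DMSO replicate 3), with overlapping groups. Ocln, the occludin gene, had means of 141 ± 9.24 and 136 ± 7.71 CPM, and the 95% interval of its log2 fold change ran from -0.22 to 0.11. Marveld2, which encodes tricellulin of the corners where cells meet, went from 42.6 to 39.8 CPM (-0.10), and Marveld3 from 43.4 to 41.4 CPM (-0.07). Jam2, a junctional adhesion molecule better known from endothelium, was near the detection limit at 4 to 21 raw counts per library.

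In the plaque of the tight junction, Tjp1 was higher in every 4OHT library, as Cgnl1 was. Tjp1, which encodes the scaffold ZO-1, measured 227, 229 and 194 CPM under DMSO and 266, 267 and 285 CPM under 4OHT. Its log2 fold change was 0.33 (SE 0.0795, 95% interval 0.14 to 0.52, edgeR adjusted p = 0.114, and 0.0594 with the block). DESeq2 placed Tjp1 past the threshold (adjusted p = 0.0194). DMSO replicate 3 was the lowest library, and without it the estimate was 0.25 (edgeR adjusted p = 0.0867). Tjp3 (ZO-3), the highest of this group per kilobase, measured 304, 311 and 331 CPM under DMSO and 308, 290 and 307 CPM under 4OHT, with overlapping groups (-0.06, adjusted p = 0.678). Cgn, the cingulin gene, had means of 261 and 292 CPM (0.16, adjusted p = 0.386). The exons of Tjp3 overlap those of Apba3 on the opposite strand over 40 bases, and the strand setting of the counting is not given in the sources used here, so Tjp3 counts may include reads of Apba3.

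Of the 3 adherens junction genes edgeR called 0 with or without the block. Cdh1, which encodes E-cadherin, had the highest level per kilobase and measured 1152, 1116 and 978 CPM under DMSO and 1207, 1050 and 1056 CPM under 4OHT. The groups overlapped, and the log2 fold change of 0.03 had a 95% interval from -0.19 to 0.25 (adjusted p = 0.915). Ctnna1, the alpha-catenin gene, was at 653, 617 and 552 CPM and then 698, 648 and 697 CPM (0.16, adjusted p = 0.402). Ctnnd1, the p120-catenin gene, was at 203, 179 and 142 CPM and then 217, 182 and 186 CPM (0.16, adjusted p = 0.64). Without DMSO replicate 3 these estimates were 0.09 and 0.03. In both catenin genes the groups overlapped, because DMSO replicate 1 was above the lowest 4OHT library. Exons of Ctnnd1 share 4482 of their 7319 bases with another GENCODE gene of the same strand, which is absent from the deposited counts. How reads in that stretch were counted is not given in the sources used here.

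Desmosomal cadherins gave no call among 5 genes with or without the block, with edgeR adjusted p-values from 0.711 to 0.978 without it. Dsg2, the main desmoglein of simple epithelium, measured 553, 542 and 440 CPM under DMSO and 555, 510 and 504 CPM under 4OHT (log2 fold change 0.03, 95% interval -0.21 to 0.27). Dsc2, its desmocollin partner, had means of 304 and 314 CPM (0.05). The desmogleins of stratified epithelium were low. Dsg3 varied more within the groups than between them, at 5.45, 3.73 and 0.65 CPM under DMSO and 4.04, 2.36 and 1.01 CPM under 4OHT (-0.43, SE 0.727). Dsg4 was at 0.75, 0.68 and 0.292 CPM and then 0.515, 0.478 and 0.378 CPM (-0.35, SE 0.369), and Dsg1c had means of 1.65 and 1.69 CPM. In all 5 genes replicate 3 was below the mean log2 level of replicates 1 and 2 in both groups.

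In the desmosomal plaque 0 of 6 genes were called with or without the block. Jup, which encodes plakoglobin, measured 472, 442 and 418 CPM under DMSO and 550, 495 and 522 CPM under 4OHT. No DMSO library reached the lowest 4OHT library (log2 fold change 0.23, SE 0.0728, edgeR adjusted p = 0.201, and 0.0577 with the block). Pkp4, a plakophilin relative also found at adherens junctions, measured 205, 204 and 164 CPM under DMSO and 238, 238 and 228 CPM under 4OHT, again without overlap (0.30, SE 0.0941, adjusted p = 0.211, and 0.0519 with the block), and the estimate was 0.19 without DMSO replicate 3. Dsp, the desmoplakin gene and the highest of the plaque per kilobase, was at 885, 806 and 687 CPM and then 866, 763 and 860 CPM, with overlapping groups (0.07, adjusted p = 0.826). The other plakophilins had log2 fold changes of -0.19 (Pkp1), -0.06 (Pkp2) and 0.19 (Pkp3). Pkp2 was the steadiest, with means of 106 ± 1.18 and 102 ± 1.77 CPM and no overlap between the groups.

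For both cornified plakins, envoplakin and periplakin, all 3 4OHT libraries were above all 3 DMSO libraries, as in 12.5% of all tested genes. DMSO replicate 3 was the lowest library for both. Envoplakin and periplakin join desmosomes and keratin to the cornified envelope of stratified epithelium. Evpl measured 35.7, 29.1 and 23.9 CPM under DMSO and 59.8, 45.0 and 55.0 CPM under 4OHT, which the fit gave as 1.8-fold higher. Its log2 fold change was 0.85 without the block (SE 0.164, 95% interval 0.46 to 1.23, edgeR adjusted p = 0.0718), and with the replicate block Evpl rose (0.85, SE 0.113, adjusted p = 0.0191). Ppl measured 130, 125 and 93.8 CPM under DMSO and 166, 164 and 187 CPM under 4OHT, 1.48-fold higher in the fit (0.56, SE 0.129, adjusted p = 0.106, and 0.0576 with the block). Leaving out replicate 3 of both groups gave a log2 fold change of 0.69 for Evpl (adjusted p = 0.0565) and 0.36 for Ppl (adjusted p = 0.0169). Evpl lies on chromosome 11 from 116220559 to 116238077 and Ppl on chromosome 16 from 5086291 to 5132421 in GRCm38.

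Levels of markers of stratified or gastric epithelium are given beside Evpl and Ppl. The list was chosen with earlier results of these data known. The summed level of the 9 used here was 83.4 to 110 CPM under DMSO and 375 to 592 CPM under 4OHT. EdgeR called 4 of 8 tested (Krt4, Ivl, Tff1 and Gkn1) higher without the block, beside 0.908% of all tested genes called in either direction. With the block 6 were called higher, beside 3.99% of all tested genes. Krt5 and Krt14 were not called in either fit. Trp63, the defining factor of stratified basal cells, was at most 0.13 CPM in any library, and Krt5 and Krt14 at most 1.76 and 2.58 CPM. The part of these markers in the plakin result was not tested.

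Among the connexins, Gjb1, Gjb2 and Gjb5 were not called by edgeR with or without the block. Gjb1, which encodes connexin 32 and had the highest level of the connexins per kilobase, measured 54.8, 46.9 and 69.8 CPM under DMSO and 68.0, 49.1 and 77.0 CPM under 4OHT. Its groups overlapped (log2 fold change 0.18, adjusted p = 0.722), and replicate 3 was the highest in both. Gjb2, the connexin 26 gene, had means of 37.5 and 33.6 CPM (-0.16, adjusted p = 0.657). Gjb5 was low, at 1.0, 0.653 and 0.162 CPM under DMSO and 1.23, 0.787 and 0.73 CPM under 4OHT, with overlapping groups (0.56, SE 0.526, adjusted p = 0.672, and 0.14 without DMSO replicate 3). Each 4OHT library was above the DMSO library of its number, and DMSO replicate 3 was the lowest. Gjb6, 18601 bases from Gjb2 on chromosome 14, was left out of the test, with 1, 2 and 3 raw counts in DMSO and 8, 5 and 11 after 4OHT.

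In DMSO, replicate 3 lay further from the others than the groups lay apart for genes such as Dsg3, Gjb5, Cldn4 and Cgnl1. It was below the mean log2 level of replicates 1 and 2 in 31 of the 41 genes (median -0.27), beside 50% of all tested genes. In 4OHT it was below in 22 (median -0.01, beside 50.3%), and the same 22 were below in both groups, where 33.8% of all tested genes were. Dsg3 (-2.62 in DMSO and -1.53 in 4OHT), Gjb5 (-1.79 and -0.39), Cldn4 (-1.05 and -0.38) and Cgnl1 (-0.90 and -0.13) were lower in replicate 3. The log2 fold change of Cgnl1 without the block was 0.71. Cldn15 (1.05 and 0.70) was the furthest above the others in both groups, beside a log2 fold change of -1.07. Replicate 3 was above the mean log2 level of replicates 1 and 2 in both groups for 6 of 9 claudins. For 5 of 5 desmosomal cadherins it was below that mean in both. Some of these differences were near 0, such as 0.0028 for Cldn7 and -0.0095 for Dsc2 in 4OHT. The share of all tested genes above that mean in both groups was not computed.

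**Figure D4:**
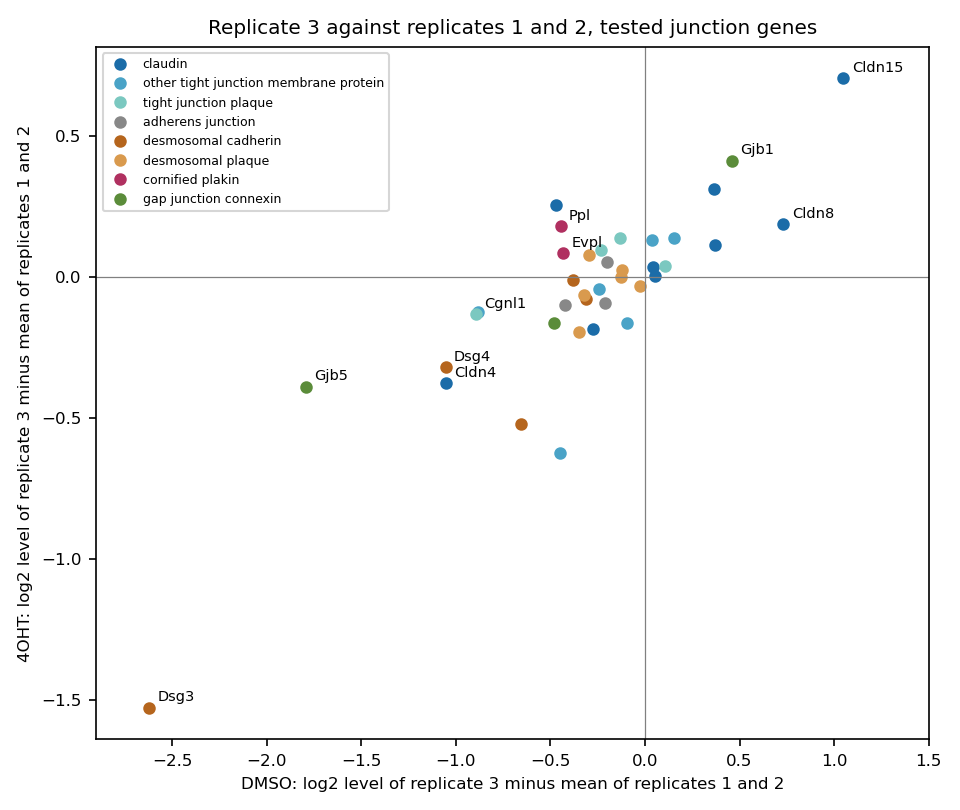
Log2 level of replicate 3 minus the mean of replicates 1 and 2 (0.1 CPM added) in DMSO on the horizontal axis and in 4OHT on the vertical axis, 1 point for each of 38 tested junction genes, coloured by role. Cldn15 lies at the upper right (1.05 and 0.70) and Dsg3 at the lower left (-2.62 and -1.53), and 19 of the 38 genes are below 0 in both groups.

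Genes that work with these junctions but are not among them were counted in the same fit, from a list of 68 polarity, scaffold, adhesion, desmosome-linked and channel genes. Of 54 tested, edgeR called 0 without the block, and with it 5 rose and 1 fell (6.99% of all tested genes were called with it). Among those that rose was Pvrl4, which encodes the adhesion protein nectin-4 (11.8 to 26.5 CPM, log2 fold change 1.21, adjusted p = 0.0214, both with the block). Ildr2, an angulin of tricellular contacts (1.8 to 4.58 CPM, 1.37, 0.0381), Tmem43 (0.45, 0.0473) and the polarity scaffold gene Dlg1 (0.21, 0.0415) rose too. Without the block the edgeR adjusted p-values were 0.076, 0.0748, 0.225 and 0.113 in the same order. Epcam, which encodes a membrane protein that binds claudin-7, fell with the block, from 1143 to 950 CPM (-0.27, adjusted p = 0.0446, and 0.144 without the block). Without the block, the median of the 54 log2 fold changes was 0.115, beside 0.13 for the 41 junction genes.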

How the data were processed

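The authors deposited raw counts per gene for 6 libraries, per the file headers. They also deposited a normalised score per gene (which, from the values, is the count scaled per library and rounded; not used), a log2 fold change, a mean log2 level and p-values from DESeq and edgeR, per the file headers. STAR 2.4.0f1, bcl2fastq 1.8.4 and GRCm38 are named in the submitters' processing notes; the library kit is directional, per the labels; the read counter and its strand setting are not given in the sources used here. All tests used the raw counts, so depth is the library total in the report, and intervals cover the spread between libraries.

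Counts were fitted over the whole table in R 4.3.3 with edgeR 4.0.16 (filterByExpr, TMM, quasi-likelihood F test, 4OHT against DMSO, all 6 libraries, two-sided, Benjamini-Hochberg over 14544 genes). SE is the log2 fold change divided by the root of F. A gene is called at an adjusted p under 0.05. Alternatives were a replicate block, other scaling and filters, DESeq2 1.42.0, limma-voom (limma 3.58.1), and leaving out libraries. The labels do not say what a replicate number shares; the numbers were taken to pair libraries because every same-number correlation of deviations was over 0.1.

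The members, the lists and the tests were chosen with earlier results of these data known. Per-library values are given for members called in either edgeR fit, the 2 smallest p-values in each role and the highest level per kilobase in each role; other members are given to account for all. Exon lengths and coordinates are from GENCODE mouse release M21. Promoter windows are from RefSeq. Results of some genes of these lists are not reported here, in the text or the plots, but they stay in the counts.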

Additional observations from a re-analysis of the deposited data

How the results depend on the processing

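Across all tested genes 132 were called, 102 higher and 30 lower, and the count depended on the model and on which library was left out. The replicate block gave 1017 (580 higher and 437 lower), with 3 junction genes higher and 1 lower. DESeq2 gave 756 (494 and 262), with 5 junction genes higher. Leaving out 1 library gave 4 to 340 calls (3 to 253 higher and 1 to 87 lower) and 0 to 2 junction genes higher, the highest of each without DMSO replicate 3, where Cldn8 and Ppl were called. Without replicate 3 of both groups there were 601 (379 and 222), with 2 junction genes higher (Cgnl1 and Ppl) and 1 lower (Cldn15). With the replicate block added there were 2678 (1482 and 1196, 18.3% of tested genes), with 14 junction genes higher and 5 lower; that fit has 1 residual degree of freedom. RLE size factors, library totals alone, both other filters and limma-voom kept the count of junction genes called at 0. They kept all counts over all genes within 1.5 times those of the main fit. The filter of 1 CPM in 3 libraries removed Cldn8, Cldn18, Dsg4, Gjb5 and Jam2, which left 36 junction genes tested.

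Of the named genes, meaning those that the rule above picked for per-library values, 4 had estimates that changed sign. Some other junction genes did so too, among them Cldn2 (-0.0538) and Dsc2 (-0.0773) without DMSO replicate 3. Leaving out 1 library, Cdh1 ran from -0.0483 (without 4OHT replicate 1) to 0.0767, Dsg2 from -0.0724 (without DMSO replicate 3) to 0.0903, Dsp from -0.0338 (without DMSO replicate 3) to 0.152, and Dsg3 from -0.983 to 0.146 (without DMSO replicate 1). Cdh1 was also -0.0442 without DMSO replicate 3 and Dsg2 -0.0226 without 4OHT replicate 1. Without replicate 3 of both groups, Cdh1 was -0.0124, Dsg2 -0.0465 and Dsp -0.0599, and with the replicate block added -0.0160, -0.0479 and -0.0615. The cause was not tested. Of the other values of named genes under the alternatives, 287 kept their sign and side of the threshold and 29 kept their sign and passed it. All edgeR fits assume equal spread in both groups, and leaving out 1 library leaves a group of 2. Depth limits Cldn8, Cldn18, Dsg4, Gjb5 and Jam2, which had 70 to 165 counts each in total.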
